A study of Mus musculus with 5 samples.

Results

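The 10 genes described here encode proteins of the cardiac Z-disc, its links to the membrane and the thin filament that are known to respond to stretch and overload: Ankrd1, Ankrd23, Csrp3, Xirp1, Xirp2, Acta1, Actc1, Fhl1, Tcap and Flnc. They were taken by gene name, and all 10 were found once each among the 19061 genes of the files. Hearts came from C57BL/6 mice carrying an activated calcineurin transgene, driven by the alpha myosin heavy chain promoter in cardiac myocytes, which causes severe hypertrophy. The genotype label of all 5 libraries is calcineurin transgenic, so no heart labelled as free of the transgene was compared. The titles name the line CnAtg in 4 libraries and CbAtg in 1, JIB-04 replicate 3. The 2 vehicle and 3 JIB-04 libraries were all from postnatal day 158. JIB-04 is a compound that inhibits the Jumonji family of histone lysine demethylases. Mice of both groups had been dosed 3 times a week since they were 4 weeks old, with JIB-04 at 50 mg/kg or with vehicle. The labels do not say that each library was a separate animal, so the p-values measure only the spread between these libraries.

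The Z-disc is the border of the sarcomere, where actin filaments of neighbouring sarcomeres and the ends of titin are anchored. It bears the force of each beat and holds proteins that move to the nucleus or change in amount when the wall is stretched. Genes of this group are commonly read as signs of biomechanical stress in the hypertrophied heart, together with skeletal alpha-actin, which the foetal heart uses and the stressed adult heart takes up again.

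None of the 10 genes passed the test for a difference between JIB-04 and vehicle, and 0% of all 14414 genes tested passed it. The estimates of the 10 were split, with 5 above and 5 below 0, while 53.1% of all genes tested were below 0. Per summed cardiomyocyte markers, a scaling chosen after the values were seen and used without a test, 8 of the 10 were above and 2 below 0. That sum itself differed by -0.19 on the log2 scale, JIB-04 minus vehicle, so this scaling raises the estimate of any gene by about that much. The share of all genes above 0 on this scaling was not counted. Tcap, the cap of titin at the Z-disc, had the largest estimate, at 2236 ± 107 CPM in vehicle and 1637 ± 468 in JIB-04 (mean ± SD, n = 2 and n = 3 throughout). Ankrd1, a titin-binding ankyrin repeat protein known to be induced by stretch, was at 5606 ± 485 and 6163 ± 1740 CPM. Skeletal alpha-actin, Acta1, was at 2080.4 ± 710.3 and 2278 ± 29 CPM. The 3 JIB-04 libraries differed among themselves. Replicate 1 held the lowest level of 7 of the 10 genes, while Ankrd1 was higher in replicates 2 and 3 than in either vehicle library.

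CPM here are the deposited values, read numbers scaled by library as the authors did it. Recovered reads came to 32152168 to 37002846 per library, and each of the 10 genes had at least 24423 reads in every library (the lowest being Xirp1 in JIB-04 replicate 1), so that counting error is small beside the spread between libraries. Ppp3ca, the gene of calcineurin A, to which transgene reads may map, had 6082 and 8022 CPM in vehicle and 7275, 4341 and 5421 CPM in JIB-04. It was lowest in JIB-04 replicates 2 and 3 (limma adjusted p = 0.862 between the groups), and its part in the levels of the 10 genes was not tested. Cardiomyocyte markers were abundant in every library. The 10 skeletal muscle markers summed to between 2.38 and 2.61 CPM in all 5 libraries, and Myf6 and Myh2 were at or under 3 reads in each, so the levels of Acta1 below were measured with the defining genes of skeletal muscle near 0.

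The promoters of 4 members are shown, each with a match to the CArG box or the MCAT element. The CArG box is bound by serum response factor, and the MCAT element, CATTCC, by TEAD factors. The sequences, from RefSeq on GRCm38.p6, are the 250 bases before the annotated start, written 5′ to 3′ along the gene, with CArG boxes, MCAT elements and a TATA box (TATAAA) in capitals. They lie at chr8:123894776-123895025 (Acta1), chr2:114052876-114053125 (Actc1), chr19:36119845-36120094 (Ankrd1) and chr1:36535740-36535989 (Ankrd23), all on the minus strand.
Acta1: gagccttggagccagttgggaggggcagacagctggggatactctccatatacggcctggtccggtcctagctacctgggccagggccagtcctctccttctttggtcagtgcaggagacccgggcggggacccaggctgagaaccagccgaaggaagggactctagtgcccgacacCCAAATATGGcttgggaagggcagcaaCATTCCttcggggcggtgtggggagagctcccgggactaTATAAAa
Actc1: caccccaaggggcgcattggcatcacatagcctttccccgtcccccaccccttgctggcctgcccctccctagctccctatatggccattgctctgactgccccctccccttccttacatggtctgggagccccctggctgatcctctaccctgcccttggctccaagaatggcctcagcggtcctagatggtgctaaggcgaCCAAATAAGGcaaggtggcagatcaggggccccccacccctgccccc
Ankrd1: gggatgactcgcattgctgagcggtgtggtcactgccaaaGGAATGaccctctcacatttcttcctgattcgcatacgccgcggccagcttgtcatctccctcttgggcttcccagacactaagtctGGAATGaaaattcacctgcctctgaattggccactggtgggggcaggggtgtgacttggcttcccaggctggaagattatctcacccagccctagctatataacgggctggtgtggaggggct
Ankrd23: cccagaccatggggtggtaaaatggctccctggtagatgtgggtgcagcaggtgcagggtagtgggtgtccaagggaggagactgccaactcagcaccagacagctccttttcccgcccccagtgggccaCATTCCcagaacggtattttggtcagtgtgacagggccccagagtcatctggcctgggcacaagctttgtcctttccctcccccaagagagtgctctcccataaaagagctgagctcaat
In Acta1 a CArG box, CCAAATATGG, began 73 bases before the start, an MCAT element 46 bases before it and the letters TATAAA 7 bases before it. These distances rest on the annotated start, which was not tested here. In Actc1 a CArG box, CCAAATAAGG, began 47 bases before a start that RefSeq places 64 bases upstream of the gene start in the files. Ankrd1 held the MCAT element on the opposite strand, written GGAATG here, beginning 210 and 123 bases before the start. Ankrd23 held it once, 120 bases before the start. RefSeq promoters matched 8 of the 10 genes, Tcap and Xirp1 being the others. Taking for each gene the window nearest to its start in the files, a CArG box was found in Acta1, Actc1 and Fhl1, where the window lies inside the gene, 47922 bases from that start. Of all 32851 promoter windows of this length, 1.47% held a CArG box. The MCAT element was found in Acta1, Ankrd1 and Ankrd23 and in 12.6% of all windows. It also lay 104 bases before a second RefSeq start of Flnc, 103 bases from the gene's start in the files. A binding site for MEF2 factors, CTAAAAATAG, was found in Xirp2 and in 2.92% of all windows, and the TATA box, searched along the gene only, in Acta1 and in 7.59%. The other elements were searched on both strands, and a match is a stretch of letters, not evidence of binding.

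The level per length of gene ordered the members differently from their CPM. Divided by the summed length of their exons, Actc1, cardiac alpha-actin and the main actin of the adult thin filament, was highest, at a mean of 12452 CPM per kb over the 5 libraries. It was followed by Ankrd1 at 2941, Tcap at 1980, Acta1 at 1521, Csrp3 at 910.2, Ankrd23 at 536 and Fhl1 at 318 CPM per kb. The long genes Xirp1, Xirp2 and Flnc lay close together, at 152, 129 and 126 CPM per kb. Their ranges over the libraries were 125 to 177, 92.5 to 166 and 109 to 142 CPM per kb, so the ranges of these 3 overlapped. Such ranges do not compare the genes within a library. The range of Tcap, 1214 to 2439 CPM per kb, overlapped those of Ankrd1, 2059 to 3601, and Acta1, 1091 to 1786. The order of Actc1 above all, and of Csrp3, Ankrd23, Fhl1 and the 3 long genes in sequence, was without overlap between neighbours. Exon lengths came from the GENCODE annotation of the same genome and may differ from the models the authors counted on.

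**Figure D1:**
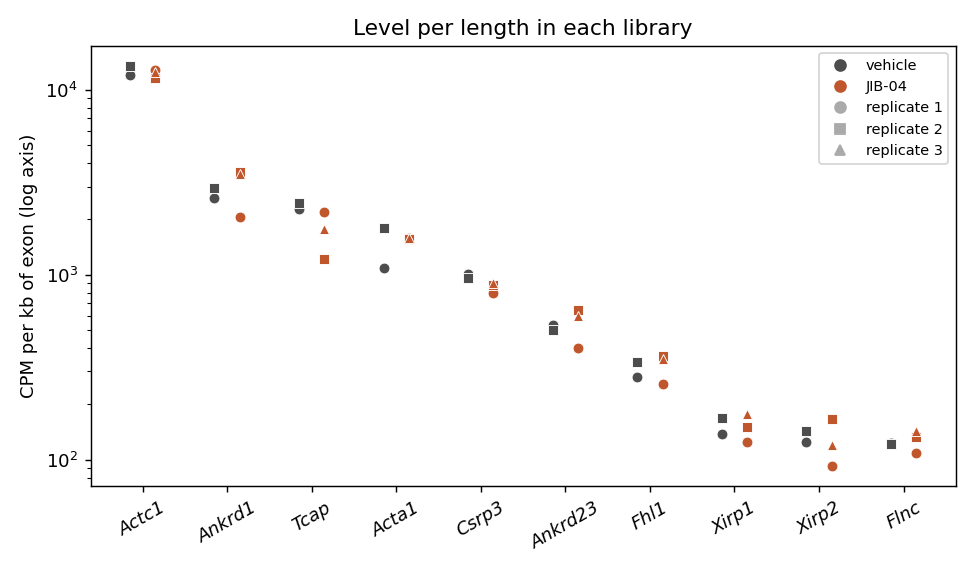
Level of each gene per kb of exon (y axis, CPM per kb, log axis) in each library, grey for vehicle and orange for JIB-04, with the replicate given by the symbol. Actc1 stands alone at 11532 to 13462 CPM per kb, while Xirp1, Xirp2 and Flnc share the range under 177 CPM per kb.

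Ankrd1 and Ankrd23 belong to the muscle ankyrin repeat proteins, which sit on the elastic part of titin in the I-band and also enter the nucleus. Ankrd1 (chromosome 19, 36111965 to 36119844) was the 10th most abundant gene in the files by mean CPM. The vehicle libraries had 5264 and 5949 CPM, and JIB-04 replicates 1, 2 and 3 had 4158, 7273 and 7058 CPM. Replicate 1 thus lay below both vehicle libraries and replicates 2 and 3 above them, a 1.75-fold range within JIB-04. The estimated log2 fold change, 0.095 (SE 0.30), had a 95% interval from -0.61 to 0.80 (limma adjusted p = 0.958). The interval therefore runs from a fold of 0.653 to one of 1.75, and neither a moderate fall nor a moderate rise could be told from no difference. Ankrd23 (chromosome 1, 36530534 to 36535729) showed the same layout, at 1243 and 1169.9 CPM in vehicle and 933, 1506 and 1406 CPM in JIB-04. Its log2 fold change was 0.057 (SE 0.21, limma adjusted p = 0.966).

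The ratio of Ankrd1 to Ankrd23 was 4.23 and 5.08 in vehicle and 4.46, 4.83 and 5.02 in JIB-04, so over all 5 libraries it spanned less than either gene alone. Within vehicle it spanned more than either gene, since Ankrd1 was higher and Ankrd23 lower in replicate 2. The difference of the log2 ratio was 0.038 (exact permutation test over the 10 splits of 5 libraries, two-sided p = 0.8, adjusted over 3 ratios 0.8, where the smallest possible p is 0.1). The third member of the family, Ankrd2, known from slow skeletal muscle, was between 0.188 and 0.966 CPM.

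Csrp3 encodes muscle LIM protein, a Z-disc protein whose loss is known to cause dilated cardiomyopathy, and Tcap encodes telethonin, which joins the ends of neighbouring titin molecules. In these 2 genes all 3 JIB-04 libraries were below both vehicle libraries, a layout found in 12% of all 14414 genes tested. The count of 2 of 10 is thus near the background, and no member had all 3 above both vehicle libraries, against 10.7% of genes. Csrp3 (chromosome 7, 48830398 to 48848051) had 940.5 and 899.9 CPM in vehicle against 744, 823 and 848 CPM in JIB-04. The groups did not overlap, but the nearest libraries of the 2 groups were closer to each other than the lowest and highest JIB-04 libraries. Its log2 fold change, -0.19 (SE 0.095), had a 95% interval from -0.42 to 0.032 (limma adjusted p = 0.816).

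Tcap (chromosome 11, 98383811 to 98384953) had 2160.3 and 2312 CPM in vehicle against 2084, 1151 and 1677 CPM in JIB-04. Replicate 1 was just under the vehicle libraries, replicate 3 clearly lower and replicate 2 lowest, a 1.81-fold range within JIB-04. The estimate of -0.49 on the log2 scale (SE 0.24) had a 95% interval from -1.07 to 0.087 (limma unadjusted p = 0.0842, adjusted p = 0.816). Leaving out JIB-04 replicate 2 gave -0.26, and leaving out JIB-04 replicate 1 gave -0.69 (limma adjusted p = 0.149). The summed cardiomyocyte markers were also lowest in JIB-04 replicates 2 and 3, at 67517 and 76420.2 CPM in vehicle and 71027, 57324 and 61738 CPM in JIB-04. The largest term of that sum was Myh6, at 23926 and 27882 CPM in vehicle and 26321, 20384 and 19599 CPM in JIB-04. All 10 markers had negative estimates, with a median of -0.17. The median was -0.089 over the 243 genes with a mean of at least 500 CPM. Myh7, a myosin heavy chain gene outside these markers, had a log2 fold change of 0.0015 (SE 0.49). In bulk heart RNA, fewer cardiomyocytes and less RNA of these markers per cardiomyocyte cannot be told apart.

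The sum differed by -0.19 on the log2 scale between JIB-04 and vehicle, so dividing by it raised every estimate by about that much. Set against the sum, Tcap had 32.0 and 30.3 per 1000 of the marker sum in vehicle against 29.3, 20.1 and 27.2 in JIB-04. It was lower in every JIB-04 library by this measure as well. Csrp3 lost its separation, at 13.9 and 11.8 per 1000 in vehicle and 10.5, 14.4 and 13.7 in JIB-04. Actc1 gained one, at 262 and 259 per 1000 in vehicle and 264, 296 and 299 in JIB-04. By this measure the log2 differences of the others were 0.36 for Acta1, 0.28 for Ankrd1, 0.24 for both Ankrd23 and Flnc, 0.23 for Fhl1, 0.17 for Xirp1 and 0.063 for Xirp2, all with overlapping groups. That of Actc1 was 0.14, that of Csrp3 -0.0081 and that of Tcap -0.30. These values carry no test.

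**Figure D2:**
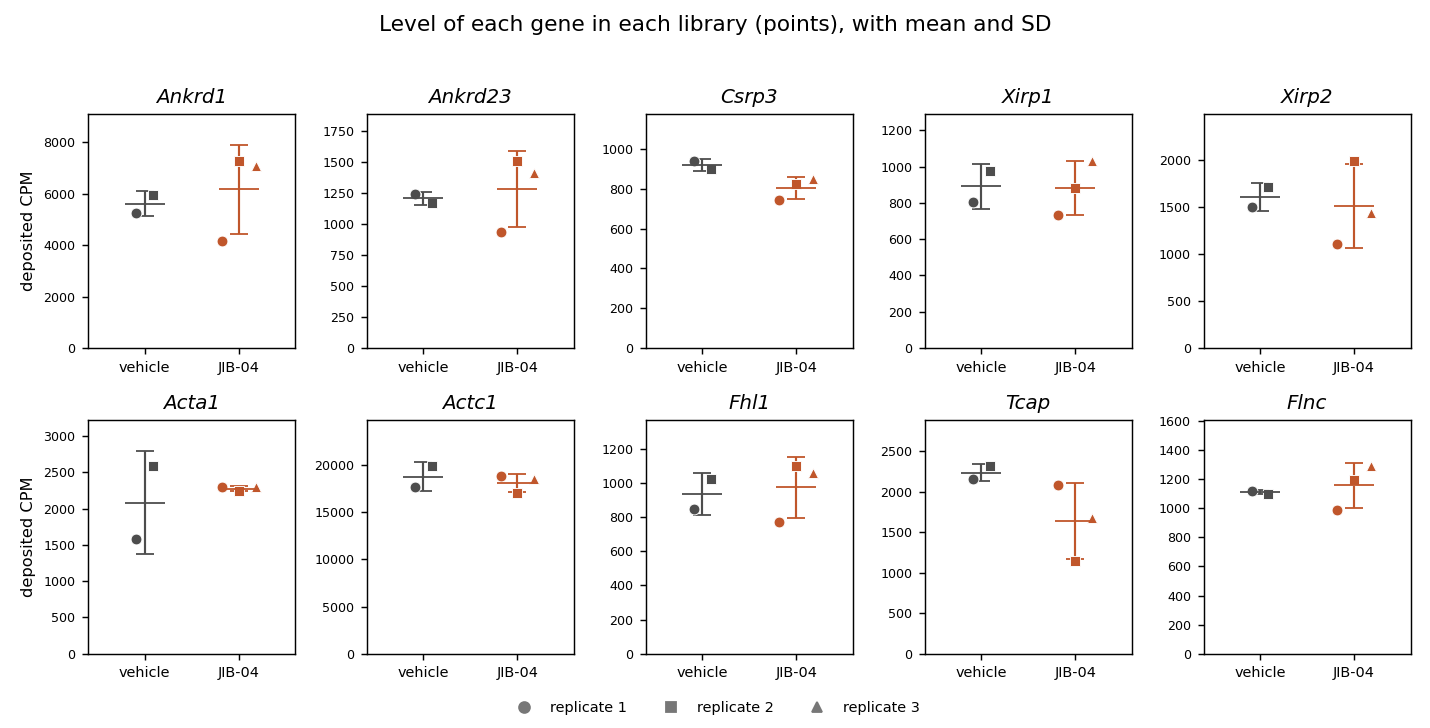
Deposited CPM (y axis, from 0) of each of the 10 genes in the vehicle (grey, n = 2) and JIB-04 (orange, n = 3) libraries, with points for single libraries, the symbol for the replicate number, and bars for the mean and SD. The JIB-04 points fall below both vehicle points for Csrp3 and Tcap, and on either side of them or among them for the other 8 genes.

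Xirp1 and Xirp2 encode the Xin actin-binding repeat proteins, which bind actin filaments at the intercalated disc and at sites of sarcomere damage. Xirp1 (chromosome 9, 120013755 to 120023598) was at 804 and 978 CPM in vehicle and 733, 882 and 1031 CPM in JIB-04. Xirp2 (chromosome 2, 67446002 to 67526606) was at 1499 and 1711 CPM in vehicle and 1108, 1993 and 1438 CPM in JIB-04. Both genes were lowest in JIB-04 replicate 1, but Xirp1 was highest in replicate 3 and Xirp2 in replicate 2. Their log2 fold changes were -0.021 (SE 0.16) and -0.12 (SE 0.24), with limma adjusted p = 0.985 and 0.927. The Xin pair shifted against each other between libraries, with Xirp1 at 53.6% and 57.1% of the Xirp2 value in vehicle and at 66.1%, 44.3% and 71.7% in JIB-04. The difference of the log2 ratio was 0.10 (exact permutation test, two-sided p = 0.8, adjusted 0.8).

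Fhl1, a LIM domain protein that binds the titin spring and takes part in the sensing of stretch, was at 848 and 1023 CPM in vehicle and 769.9, 1097 and 1059 CPM in JIB-04 (chromosome X, 56731761 to 56793346). Flnc encodes filamin C, which crosslinks actin at the Z-disc and ties it to the membrane (chromosome 6, 29433153 to 29461888). It was at 1119 and 1099.6 CPM in vehicle and 988, 1197 and 1287 CPM in JIB-04. Both showed the layout of Ankrd1, with replicate 1 below and replicates 2 and 3 above both vehicle libraries. The log2 fold changes were 0.048 (SE 0.18) for Fhl1 and 0.053 (SE 0.13) for Flnc, with limma adjusted p = 0.966 and 0.945.

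The sarcomeric actins followed neither pattern. Acta1 (chromosome 8, 123891758 to 123894775) had 1578 and 2583 CPM in the vehicle libraries against 2296, 2244 and 2294 CPM in JIB-04. The 3 JIB-04 libraries were within 1.02-fold of each other, while the vehicle libraries differed 1.64-fold and lay on either side of them. The estimate of 0.17 on the log2 scale (SE 0.21) had a 95% interval from -0.33 to 0.68 (limma adjusted p = 0.885). Its sign hung on which vehicle library was used, at 0.53 without vehicle replicate 2 and -0.18 without vehicle replicate 1. Actc1 (chromosome 2, 114047289 to 114052811), the third most abundant gene, was at 17659 and 19829 CPM in vehicle and 18777, 16987 and 18454 CPM in JIB-04, with a log2 fold change of -0.052 (SE 0.36, limma adjusted p = 0.984).

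The share of skeletal alpha-actin in the sum of the pair, a measure of the return to the foetal isoform that does not depend on library scaling, was 8.20% and 11.5% in vehicle and 10.9%, 11.7% and 11.1% in JIB-04. The JIB-04 shares lay within a narrow band around the higher vehicle library. The difference of the log2 ratio was 0.23 (exact permutation test, two-sided p = 0.4, adjusted 0.8), and without vehicle replicate 1 it was -0.046. The coding sequences of Acta1 and Actc1 are 86.2% identical over 1134 bases, with no identical run longer than 29 bases.

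**Figure D3:**
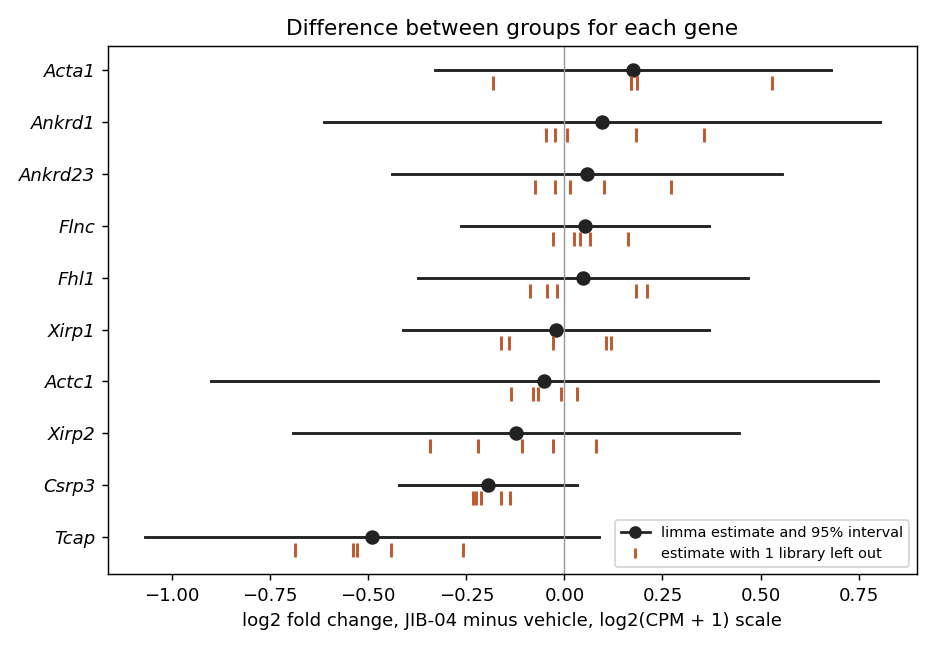
Log2 fold change of each gene, JIB-04 minus vehicle (x axis, log2(CPM + 1) scale), as the limma estimate with its 95% interval (black) and as the 5 estimates with 1 library left out (orange ticks). All 10 intervals include 0, and only Tcap and Csrp3 keep 1 sign in every estimate.

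Seen library by library, the members differed in which library was lowest. Relative to the vehicle mean, the median of the 10 genes was -0.086 and 0.086 in the vehicle libraries and -0.28, 0.13 and 0.18 on the log2 scale in JIB-04 replicates 1, 2 and 3. Together they made up 3.33% and 3.59% of the reads in vehicle and 3.23%, 3.68% and 3.70% in JIB-04. JIB-04 replicate 1 was the lowest of the 5 libraries for Ankrd1, Ankrd23, Csrp3, Xirp1, Xirp2, Fhl1 and Flnc. The same library was the lowest for 19.6% of all genes tested and for 24.7% of the 243 genes with a mean of at least 500 CPM. JIB-04 replicate 2 was the lowest for 51.0% of those abundant genes, but among the members only for Tcap and Actc1. The SD between the JIB-04 libraries, on the log2 scale, was 0.45 for Ankrd1, 0.43 for Tcap, 0.42 for Xirp2 and 0.37 for Ankrd23, against a median of 0.13 over the 243 abundant genes. It was 0.019 for Acta1 and 0.077 for Actc1, and 7 of the 10 members were above that median.

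JIB-04 replicates 2 and 3, where Ankrd1, Ankrd23, Fhl1 and Flnc were above both vehicle libraries, also had the highest sums of macrophage and fibroblast markers. The summed macrophage markers came to 227 and 163 CPM in vehicle against 231, 334 and 379.7 CPM in JIB-04. Of these markers, 10 of 10 had positive estimates, while 53.1% of all genes tested had negative ones. With limma, 8 of the 10 were at an unadjusted p under 0.05, against 6.44% of all genes tested. None was past the adjusted threshold, which 0% of all genes tested passed. The fibroblast markers summed to 4502 and 4175 CPM in vehicle and 4396, 5473 and 5246 CPM in JIB-04. Not every marker of that list followed its sum. The collagen gene Col3a1 did, at 617 and 447 CPM in vehicle and 575, 962 and 887 CPM in JIB-04. Pdgfra did not, at 52.2 and 54.8 CPM in vehicle and 53.9, 46.7 and 55.8 CPM in JIB-04. Nor did Tcf21, at 12.1 and 16.2 CPM in vehicle and 14.2, 15.9 and 15.7 CPM in JIB-04. The 9 red blood cell markers hold 3 pairs of globin genes with identical values, which leaves 6 distinct profiles. With each counted once, they summed to 3813 and 2497 CPM in vehicle and 925 (JIB-04 replicate 1), 1831 and 1340.4 CPM in JIB-04. Of the 6, 5 were at an unadjusted p under 0.05, all lower, against 6.44% of all genes tested in either direction. None was past the adjusted threshold. The part of the cells or genes behind these marker sums in the levels of the 10 genes was not tested.

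**Figure D4:**
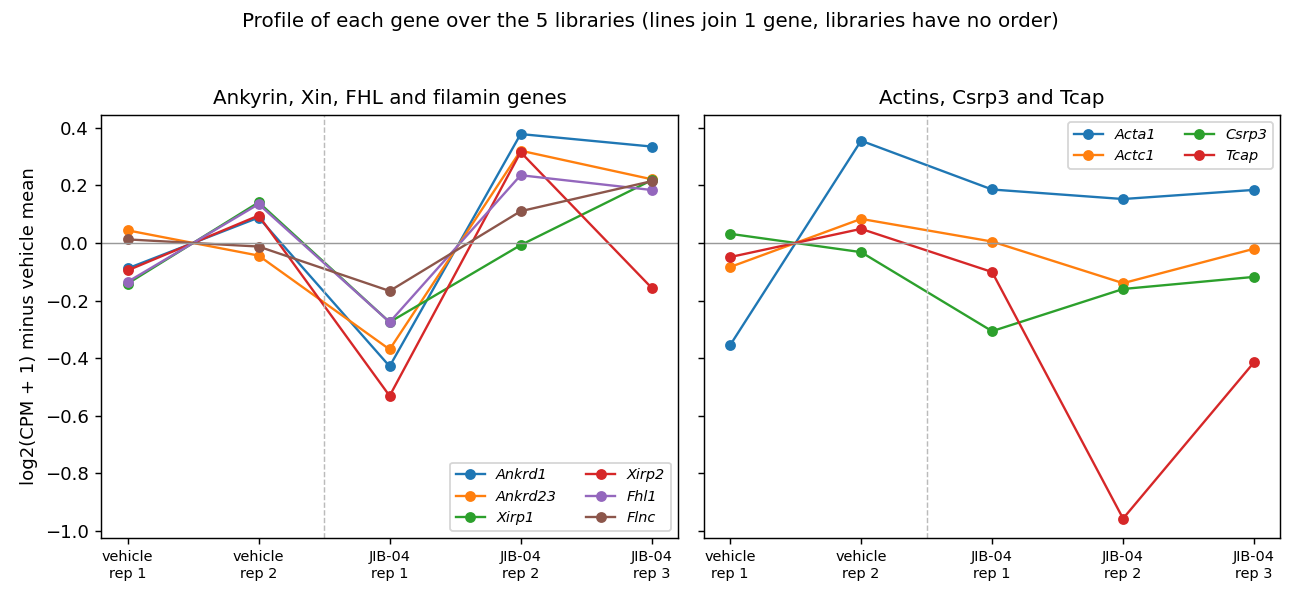
Log2(CPM + 1) of each gene minus its vehicle mean (y axis) in the 5 libraries (x axis, vehicle left of the dashed line), with the ankyrin, Xin, FHL and filamin genes on the left and the actins, Csrp3 and Tcap on the right. The 6 genes on the left are all lowest in JIB-04 replicate 1, Acta1 is level across JIB-04, and Tcap is at -0.96 in JIB-04 replicate 2.

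Likeness between genes was measured as the root mean square difference of their log2 values, each centred on its own mean over the 5 libraries, among 9033 other genes with a mean of at least 10 CPM. Over so few libraries this is a description only. The 5 genes most like Ankrd1 were Map6, Parm1, Maff, Gpr153 and Unc5b, with differences of 0.043 to 0.080. Maff, a small transcription factor of the Maf family, was at 12.2 and 12.8 CPM in vehicle and 9.54, 18.8 and 16.9 CPM in JIB-04. Among the members Ankrd23 came 16th and Fhl1 28th, Xirp1, Xirp2 and Flnc lay between 285th and 311th, and Tcap was 8972nd, close to the far end. The genes most like Acta1 were Cnksr3, Tcf21, Prox1, Rrad and Tec, with differences of 0.11 to 0.13. Rrad, a small GTPase that restrains the cardiac calcium channel, was at 205 and 279 CPM in vehicle and 298, 307 and 317 CPM in JIB-04. Actc1 came 473rd. The genes most like Tcap, looked up after its values were seen, were Cd28, Slc31a2, Ppip5k2, Kcnj12 and Edn3. Kcnj12, a channel of the inward rectifier potassium current, was at 30.5 and 29.6 CPM in vehicle and 28.6, 16.6 and 22.3 CPM in JIB-04.

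No gene of the other Z-disc and stretch lists passed the test either. Over all 14414 genes limma called 0% at an adjusted p under 0.05, with 928 (6.44%) at an unadjusted p under 0.05. edgeR (946 at an unadjusted p under 0.05) and limma-voom (872) likewise called none, while DESeq2 called 86 of 13693 genes (0.628%) and limma without JIB-04 replicate 1 called 29 of 14327 (0.202%), none of them a member. Of 43 Z-disc scaffold genes tested, 33 (against 53.1% of all genes tested) had negative estimates, with a median log2 fold change of -0.090 against -0.0092 over all genes tested and -0.089 over the 243 abundant genes. In 11 of them all 3 JIB-04 libraries were below both vehicle libraries and in 2 all were above, against 12% and 10.7% of all genes tested. Tmod1, which caps the slow end of the thin filament, was at 497 ± 22 CPM in vehicle and 432 ± 21 in JIB-04 (limma adjusted p = 0.750). Klhl41, a Kelch protein that stabilises thin filament proteins, was at 154 ± 7 and 129 ± 15 CPM. Trim55, a ubiquitin ligase of the M-line, was at 65.4 ± 0.06 and 58.6 ± 3.3 CPM, and Ankrd28 at 40.8 ± 2.9 and 47.9 ± 4.6 CPM.

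Among 28 genes of the costamere, the intercalated disc and mechanosensing, 13 estimates were positive and 15 negative, against 53.1% negative over all genes tested. At an unadjusted p under 0.05 with limma were 3 of the 28, all lower, against 6.44% of all genes tested in either direction. The 3 were Lims2, a partner of integrin-linked kinase, at 67.2 ± 5.1 CPM in vehicle and 51.8 ± 3.9 in JIB-04 (limma adjusted p = 0.499), the zyxin gene Zyx at 398 ± 20 and 332 ± 33 CPM, and the vinculin gene Vcl at 322.1 ± 7.1 and 280.3 ± 21.9 CPM. Nrap, which ties the last sarcomere to the intercalated disc, was at 1605.4 ± 50.6 and 1413.2 ± 68.5 CPM. In all 4 the JIB-04 libraries were below both vehicle libraries, as in 6 of the 28, against 12% of all genes tested, and in none of the 28 were they all above, against 10.7%.

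Of 14 genes of serum response factor, its coactivators, TEAD, MEF2 and other cardiac factors, 5 estimates were positive and 9 negative. Over all genes tested, 53.1% of estimates were negative. Srf itself was at 125 and 123 CPM in vehicle and 111, 125 and 133 CPM in JIB-04. Myocd, its cardiac coactivator myocardin, was at 72.9 ± 4.2 and 61.4 ± 7.3 CPM, Hand2 at 116 ± 1 and 91.0 ± 15.1 CPM, Gata4 at 197.8 ± 7.7 and 215.4 ± 9.8 CPM, and Mkl1 at 17.3 ± 0.7 and 19.5 ± 2.2 CPM. The 18 genes known as TEAD or serum response factor targets, Ankrd1 and Vcl among them, had a median log2 fold change of 0.094, with 11 positive. The median over all genes tested was -0.0092. The early response genes Junb and Egr1 were at 23.4 ± 4.8 and 38.2 ± 13.2 CPM and at 16.6 ± 5.7 and 26.7 ± 10.8 CPM, with overlapping groups, and Myl9 at 34.2 ± 8.8 and 40.5 ± 4.1 CPM.

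The cytoplasmic actins lay higher in JIB-04 replicates 2 and 3 than in the other libraries. Actb, cytoplasmic beta-actin, was at 307 and 280.4 CPM in vehicle and 316, 467 and 462 CPM in JIB-04, with a log2 fold change of 0.47 (SE 0.17, limma adjusted p = 0.748). Actg1, cytoplasmic gamma-actin, was at 364 and 368 CPM in vehicle and 349, 509.9 and 492 CPM in JIB-04. Actn1 was at 51.7 ± 2.0 and 67.8 ± 18.7 CPM and Actn4 at 333 ± 26 and 371 ± 34 CPM, both non-muscle alpha-actinins. These genes are read in every cell type, and replicates 2 and 3 were also the libraries with the highest macrophage and fibroblast marker sums, whose part in these values was not tested. Smooth muscle alpha-actin, Acta2, was at 1443 and 1045 CPM in vehicle and 1518, 908 and 1560.2 CPM in JIB-04.

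Of 18 foetal and stress genes, Acta1, Ankrd1 and the cardiomyocyte marker Myh6 included, 13 estimates were positive and none passed. Myh6 had a log2 fold change of -0.24. Over all genes tested, 53.1% of estimates were negative. Nppb, the B-type natriuretic peptide gene, was at 1002 and 857 CPM in vehicle and 774, 1457 and 1174 CPM in JIB-04, the same layout as Ankrd1. Nppa and Myh7, of the same list, did not have that layout. Nppa was at 1357 and 966 CPM in vehicle and 963, 1636 and 1151 CPM in JIB-04. Myh7 was at 26279 and 29944 CPM in vehicle and 33810, 20750 and 31566 CPM in JIB-04. Nmrk2, a muscle kinase of NAD synthesis, was at 36.7 and 36.1 CPM in vehicle and 43.0, 113 and 58.4 CPM in JIB-04. Rcan1, a target and inhibitor of calcineurin, was at 258 ± 21 and 362 ± 118 CPM, Timp1, a metalloproteinase inhibitor, at 9.21 ± 3.13 and 32.6 ± 20.0 CPM, and Tnni1, the slow skeletal troponin I of the foetal heart, at 4.23 ± 0.64 and 2.80 ± 0.94 CPM.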

How the data were processed

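RNA sequencing of 5 heart libraries (2 vehicle, 3 JIB-04) was analysed from 1 deposited table per library. Per the labels' protocols, Trizol RNA was made into stranded TruSeq mRNA libraries. The submitters' processing notes name build mm10 and, with no role given, TopHat2 2.0.12, featureCounts, Subread, edgeR, Picard and FastQC. Strand use in counting is not given in the sources used here. The deposited values, headed CPM, are a normalised signal. Their columns sum to 954981 to 1046902, and all values (100%) lay within 0.01 of a whole multiple of 1 read, so whole reads were recovered. A blank row (1) was left out. Starts in the files count from 0 and are printed from 1. The spread between libraries of each group exceeded sampling noise (chi-square per degree of freedom 11.8 to 55.8).

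The test was limma 3.58.1 (R 4.3.3) with a mean-variance trend on log2(CPM + 1), over 14414 genes kept by filterByExpr (minimum 10 reads, 15 in total), with Benjamini-Hochberg adjustment at 0.05 and 3 residual degrees of freedom. It was tested on simulated data with the same noise in every library. The real spread was unequal, with a chi-square per degree of freedom of 11.8 in vehicle and 25.4 to 55.8 in JIB-04. The simulation did not cover that difference. edgeR 4.0.16, DESeq2 1.42.0 and limma-voom on recovered reads, other pseudocounts, filters and scalings, a replicate block and leaving out each library were alternatives. Exon lengths are from GENCODE M21. The members, gene lists and tests were chosen with earlier results of these data known. Named genes were the 10 members, up to 4 genes with the smallest p per list, genes that state a list's range or role, and the 5 genes most like Ankrd1 and Acta1.

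Of the marker lists, none had a gene past the adjusted threshold. The median log2 fold change was -0.17 for 10 cardiomyocyte, -0.060 for 4 tested skeletal muscle, -0.064 for 9 smooth muscle, 0.20 for 10 fibroblast, 0.70 for 10 macrophage and -1.23 for 6 distinct red blood cell markers.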

Additional observations from a re-analysis of the deposited data

How the results depend on the processing

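In 15 alternative analyses no member passed an adjusted p of 0.05, and the members' median log2 fold change, 0.013, stayed between -0.15 and 0.13. Tcap and Csrp3 were negative in all 15, at -0.69 to -0.26 and -0.23 to -0.14. DESeq2 called 86 genes and limma without JIB-04 replicate 1 called 29, none of them a member, and the cause was not tested. At an unadjusted p under 0.05 stood Tcap with DESeq2 (0.0382) and without JIB-04 replicate 1 (0.0111), Ankrd23 without JIB-04 replicate 1 (0.0385) and Acta1 without vehicle replicate 2 (0.0255). A lone vehicle library is assumed to vary like the other group.

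Signs of estimates near 0 changed. Plain CPM gave 0.0011 for Actc1 and 0.031 for Xirp1. Values per summed cardiomyocyte markers, a scaling added after seeing the data, gave 0.14 for Actc1, 0.17 for Xirp1 and 0.063 for Xirp2, and 0.20 for the members' median. With 1 library left out, the estimates ran from -0.18 to 0.53 for Acta1, -0.14 to 0.032 for Actc1, -0.047 to 0.36 for Ankrd1, -0.074 to 0.27 for Ankrd23, -0.087 to 0.21 for Fhl1, -0.028 to 0.16 for Flnc, -0.16 to 0.12 for Xirp1 and -0.34 to 0.080 for Xirp2. The log2 ratios ran from -0.046 to 0.50 for Acta1 to Actc1, -0.095 to 0.17 for Ankrd1 to Ankrd23 and -0.033 to 0.32 for Xirp1 to Xirp2. The replicate numbers give no stated pairing (correlation of same-numbered deviations -0.13). With the replicate number as a block, which drops JIB-04 replicate 3, estimates were -0.025 for Ankrd1, -0.025 for Ankrd23, -0.020 for Fhl1 and -0.028 for Flnc, and the ratios -0.00044 for Ankrd1 to Ankrd23 and -0.033 for Xirp1 to Xirp2, with no gene called by limma (532 at an unadjusted p under 0.05). With 2 and 3 libraries, the spread between libraries limits these comparisons, not the read depth.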
